A study of Mus musculus with 12 samples.

Results

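The effect of doxorubicin on the mouse liver transcriptome was read from 6 of the 12 RNA-seq libraries of the series, 3 from DOX mice and 3 from Saline mice, over the 3317 of 3799 listed genes whose mean over the 12 libraries reached 1 FPKM (a fragment count normalised to transcript length and library size). All animals were male C57BL/6J mice, 8 weeks old at the first injection. DOX mice received 10 mg/kg of doxorubicin intraperitoneally on day 0 and again on day 7, and then the vehicle by gavage every other day from day 2. Saline mice received saline injections in place of the drug, and their samples are labelled vehicle. The study describes gavage only for mice given doxorubicin, so whether Saline mice were also gavaged is not stated. Livers were taken on day 20. The other 6 libraries came from mice that received a test compound and are not described here. Saline columns carry the replicate numbers 1 to 3. In the DOX group the columns are B1 (replicate 1), B3 and B4, whereas the labels list B1, B2 and B3, so B3 and B4 were taken as DOX by their letter only. Neither the labels nor the column names tie a library to a particular mouse, so the p-values below measure the spread between these libraries. The 3799 genes are a selection made by the authors and labelled DEG, the usual abbreviation for differentially expressed genes. The shares of genes and the adjusted p-values below therefore hold within this selection and not for the whole transcriptome. The 482 genes below the mean of 1 FPKM were not tested. Of the genes tested, 3129 matched a GENCODE gene and 188 were newly assembled loci without a name.

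Doxorubicin is an anthracycline that intercalates into DNA and traps topoisomerase II on it, which leaves double-strand breaks. Cells answer such breaks through p53, a transcription factor that switches on genes for cell-cycle arrest, DNA repair and apoptosis, and the drug is used to induce senescence and premature ageing in mice. The liver clears the drug, and its hepatocytes burn and store fat, make most plasma proteins and oxidise xenobiotics with cytochrome P450 enzymes, so the genes were grouped by these functions.

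The header of the deposited table names no unit, and its values were read as FPKM. Each value is given as deposited for Saline replicates 1, 2 and 3 and then for DOX libraries B1, B3 and B4. Log2 fold changes are DOX minus Saline on the log2(FPKM + 1) scale, with their standard errors, and an adjusted p is the Benjamini-Hochberg value of a limma fit over all 3317 genes. Because a few transcripts fill much of every library, the fit was made on the values as deposited and again after median-ratio scaling, in which each library is divided by the median over genes of its ratio to the geometric mean of all libraries. A log2 fold change is the median-ratio one unless it is called as deposited, and a gene is said to rise or fall only where its adjusted p after median-ratio scaling was under 0.05.

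As deposited, 1 gene was called higher in DOX (0.0301% of those tested) and 5 were called lower (0.151%). After median-ratio scaling 332 rose (10%) and 727 fell (21.9%). The numbers of rises and falls in each gene group below are to be set beside these shares. Over all genes the log2 fold change had a median of -0.34 as deposited and -0.19 after median-ratio scaling, and changes of gene groups are set beside these medians. The direction of the calls moved with the scaling. Quantile normalization called 407 genes higher and 358 lower, and scaling without the 20 most abundant genes called 949 higher and 120 lower, with an all-gene median of 0.06. Of the 1059 genes called after median-ratio scaling, 1056 had an adjusted p between 0.04 and 0.05 in limma, and as deposited 1527 genes had an adjusted p between 0.05 and 0.1. Every DOX library lay above every Saline library for 407 genes as deposited (12.3%) and for 702 after median-ratio scaling (21.2%). Every DOX library lay below every Saline library for 763 (23.0%) and 1013 genes (30.5%), respectively.

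The DOX libraries differed from each other in a graded way. The 13 mitochondrially encoded messages made up 48.2%, 48.7% and 61.9% of the summed FPKM in Saline replicates 1, 2 and 3 and 62.2%, 75.3% and 83.3% in DOX libraries B1, B3 and B4. An exact two-sided permutation test of this share gave p = 0.1, the smallest value that 3 against 3 libraries allow. Saline replicate 3 was the Saline library nearest to DOX, and B1 was the DOX library nearest to Saline. The median FPKM of the tested genes was 6.77, 6.63 and 6.01 in Saline and 6.39, 5.46 and 3.35 in DOX, and the size factor of B4 was 0.635 against 0.963 to 1.06 for the other 5. Leaving out Saline replicate 3 raised the median-ratio calls to 1901 and leaving out DOX library B1 raised them to 1721, whereas leaving out Saline replicate 1, Saline replicate 2, B3 or B4 left 3, 3, 1 and 4 calls. A fit to the 6 DOX and Saline libraries alone left 16. The families are therefore described by their median, by the number of members whose groups did not overlap and by the values of each library, beside the number of calls. The part of the graded share of mitochondrial messages in these results was not tested. In bulk tissue, fewer cells of a type and less RNA per cell cannot be told apart.

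The genes called in both scalings were few and did not overlap between the groups. *Gria3*, a subunit of AMPA glutamate receptors (ENSMUSG00000001986, GRCm38 chrX:41400854-41678601, plus strand), was the gene called higher as deposited. It was at 0.162, 0.0962 and 0.118 FPKM in Saline and at 2.02, 2.18 and 2.05 FPKM in DOX, or 0.125 ± 0.0334 against 2.09 ± 0.0824 (SD, n = 3). Its log2 fold change was 1.46 ± 0.16 as deposited (limma adjusted p = 0.000931) and 1.60 ± 0.17 after median-ratio scaling (limma adjusted p = 0.00173), and it kept its call in 6 of 6 fits that left out a library in both scalings. *Rcan2*, an inhibitor of the phosphatase calcineurin (ENSMUSG00000039601, chr17:43801351-44039516, plus strand), was at 3.19, 3.10 and 3.50 FPKM in Saline and 1.02, 0.769 and 0.587 FPKM in DOX. It fell by 1.15 ± 0.15 on the log2 scale (limma adjusted p = 0.00504), and its call was kept in 6 of 6 such fits as deposited and in 5 of 6 after median-ratio scaling.

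The other 4 of these genes fell with a wider spread. *Il1rn*, the secreted antagonist of the interleukin-1 receptor (ENSMUSG00000026981, chr2:24336853-24351494, plus strand), was at 2.92, 2.84 and 4.34 FPKM in Saline and 1.10, 0.526 and 0.718 FPKM in DOX. *Rab30*, a small GTPase of the Golgi (ENSMUSG00000030643, chr7:92741603-92844535, plus strand), was at 5.61, 4.97 and 4.41 FPKM in Saline and 1.52, 0.961 and 1.24 FPKM in DOX. In neither gene did a DOX library reach the lowest Saline library. *Sult2a3*, a hydroxysteroid sulfotransferase (ENSMUSG00000074375, chr7:14067446-14123044, minus strand), was at 13.1, 8.04 and 5.01 FPKM in Saline and 1.62, 0.618 and 0.0797 FPKM in DOX. *Acot3*, a peroxisomal acyl-CoA thioesterase (ENSMUSG00000021228, chr12:84052144-84060402, plus strand), was at 48.5, 51.7 and 18.9 FPKM in Saline and 7.17, 6.64 and 5.10 FPKM in DOX. Their log2 fold changes were -1.18 ± 0.22, -1.28 ± 0.28, -2.43 ± 0.44 and -2.16 ± 0.43, all at a limma adjusted p of 0.0431. Each kept its call in 2 of 6 fits that left out a library after median-ratio scaling. *Sult2a3* belongs to a family of near-identical copies, and *Gria3*, *Acot3* and *Rab30* each overlap another gene model on the same strand, so reads of these genes may be shared.

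**Figure D1:**
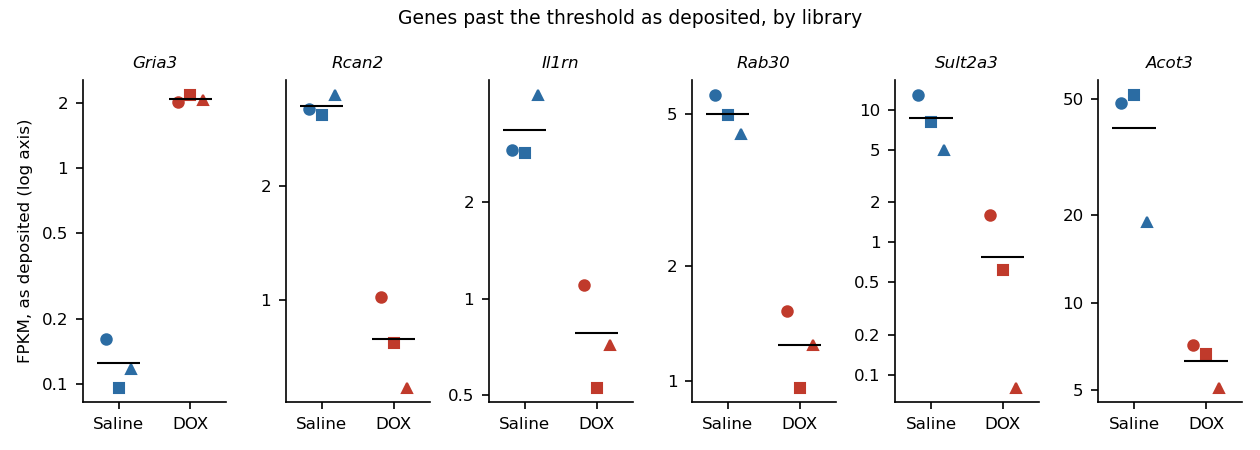
The 6 genes called in both scalings, by library. The y axis is the deposited FPKM on a log scale with its own range for each gene; circles, squares and triangles are Saline replicates 1, 2 and 3 (blue) or DOX libraries B1, B3 and B4 (red), and the black line is the group mean. The 3 DOX points lie above all Saline points for *Gria3* and below them for the other 5 genes.

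Among named genes at 5 FPKM or more whose groups did not overlap in either scaling, the largest rises included genes of liver secretion and lipid handling. *Mup8*, a major urinary protein, rose from 2.61, 39.8 and 4.83 FPKM to 161, 69.9 and 111 FPKM, a log2 fold change of 3.74 ± 1.16. *Pnpla3*, a lipase and acyltransferase of lipid droplets, rose from 2.74, 3.74 and 0.519 FPKM to 7.54, 18.6 and 9.07 FPKM. *Adrb3*, the adrenergic receptor known for lipolysis in fat, rose from 2.33, 2.51 and 2.65 FPKM to 8.49, 11.03 and 9.22 FPKM. The Saline values of *Adrb3* were close together, whereas those of *Mup8* spanned more than its gap to the lowest DOX library. *Cyp7a1*, the rate-limiting enzyme of bile acid synthesis, rose from 16.1, 34.9 and 37.3 FPKM to 79.1, 82.5 and 61.2 FPKM (1.61 ± 0.54). *Hcn3*, a pacemaker channel, rose by 1.74 ± 0.55, but it overlaps *Pklr*, a highly expressed liver gene, on the other strand, and it is not stated whether strand was used in counting. The remaining rises of this kind were *Zfp276* (1.37), *Tagap1* (1.24), *Josd2* (1.20), *Mrgbp* (1.20) and *Fam193b* (1.19).

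The largest falls by the same rule, beside *Acot3*, were in genes of varied function. Lactate dehydrogenase A, *Ldha*, was at 368, 277 and 325 FPKM in Saline and 179, 84.8 and 18.1 FPKM in DOX, and fell by 2.06 ± 0.51 on the log2 scale. *Plin2*, the coat protein of lipid droplets, fell from 199, 191 and 126 FPKM to 76.6, 38.4 and 15.8 FPKM. *Fbp1*, the fructose-1,6-bisphosphatase of gluconeogenesis, fell from 697, 602 and 342 FPKM to 298, 130.5 and 44.1 FPKM. In all 3 genes B1 was the highest DOX library and B4 the lowest. *Etfdh*, which passes electrons from fatty acid oxidation to ubiquinone, fell by 1.77, and *Suox*, the sulfite oxidase, by 1.88. *Retsat*, a retinol saturase, fell by 1.63, *Rtn4*, a reticulon of the endoplasmic reticulum, by 1.72, and *Clu*, the secreted chaperone clusterin, by 1.63. The macrophage scavenger receptor *Marco* fell by 1.79, from 3.76, 2.37 and 25.4 FPKM to 2.09, 1.14 and 0.333 FPKM, and its log2 fold change was -0.85 without Saline replicate 3.

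**Figure D2:**
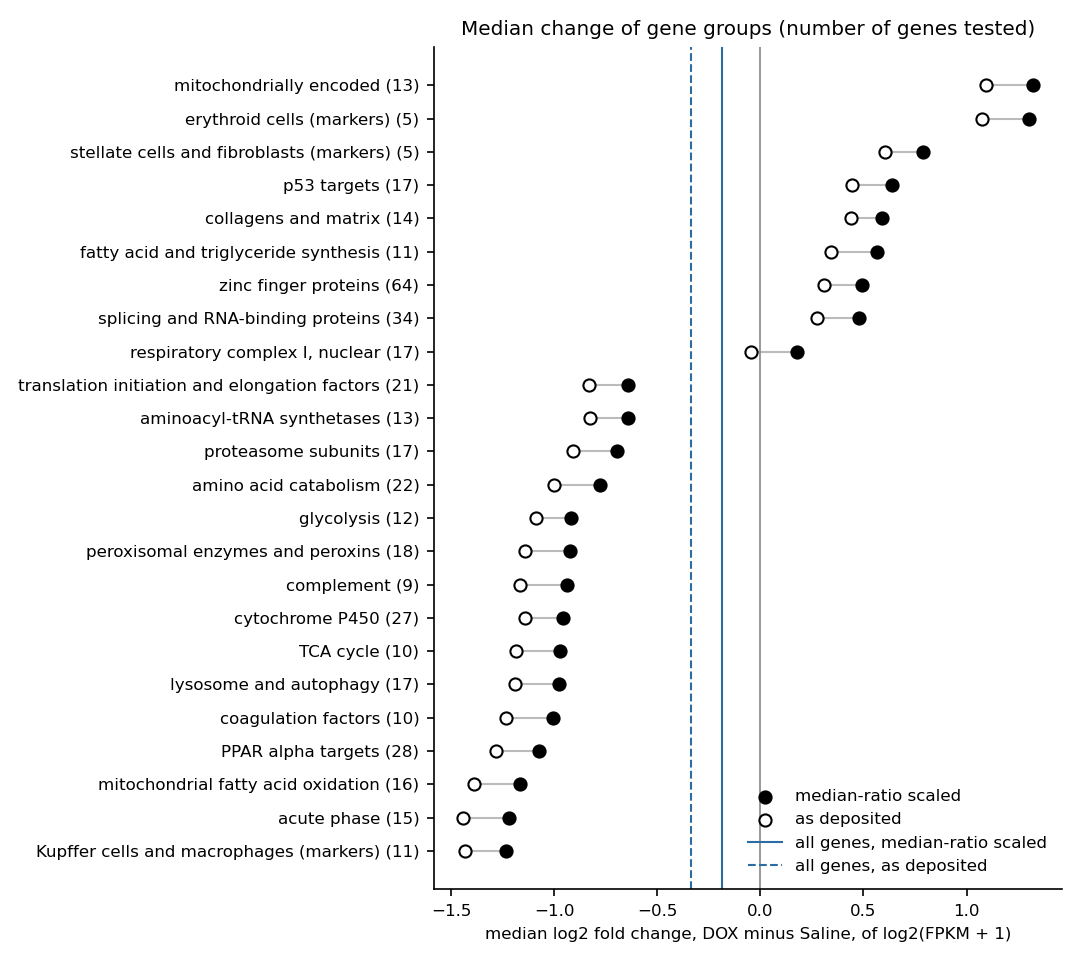
Median log2 fold change, DOX minus Saline, of 24 gene groups on the log2(FPKM + 1) scale, with the number of genes tested in parentheses. Filled circles are median-ratio scaled and open circles as deposited; the blue lines are the medians of all genes, -0.19 (solid) and -0.34 (dashed). Mitochondrially encoded genes lie highest at 1.32, and acute phase genes and macrophage markers lowest at -1.22 and -1.24, after median-ratio scaling.

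Targets of p53 stood above the all-gene median. Of 36 listed, 17 were tested, and their median log2 fold change was 0.45 as deposited and 0.64 after median-ratio scaling. In the latter, 8 rose and 3 fell, beside 10% and 21.9% of all genes, and none was called as deposited. After median-ratio scaling DOX libraries lay above all Saline libraries for 10 of the 17 targets, beside 21.2% of all genes. They lay below all Saline libraries for 5, a share near the 30.5% of all genes. *Cdkn1a*, which encodes the cell-cycle inhibitor p21, was at 0.786, 0.674 and 0.958 FPKM in Saline and 4.19, 3.51 and 1.98 FPKM in DOX, a log2 fold change of 1.34 ± 0.33 (limma adjusted p = 0.0431, and 0.0612 as deposited). *Mdm2*, the ubiquitin ligase that degrades p53, was at 5.70, 4.96 and 6.75 FPKM in Saline and 9.92, 11.3 and 10.8 FPKM in DOX. *Bax*, which opens the mitochondrial outer membrane in apoptosis, was at 18.9, 16.9 and 27.4 FPKM in Saline and 39.7, 40.3 and 29.2 FPKM in DOX. Each of these 3 genes had its lowest DOX value above its highest Saline value.

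The promoters of these 3 genes are shown because p53 is known to act at such sites. Each sequence is the 250 bases before a RefSeq transcription start, in the orientation of the gene (GRCm38.p6). *Mdm2* and *Bax* have 1 start each, and for *Cdkn1a*, which has 2, the first start with a match was chosen. Capitals mark matches to the p53 half-site, the decamer that occurs in pairs in p53 response elements and reads as the same pattern on both strands. *Cdkn1a* lies at chr17:29090729-29090978 on the plus strand, *Mdm2* at chr10:117710759-117711008 on the minus strand and *Bax* at chr7:45466899-45467148 on the minus strand.
Cdkn1a: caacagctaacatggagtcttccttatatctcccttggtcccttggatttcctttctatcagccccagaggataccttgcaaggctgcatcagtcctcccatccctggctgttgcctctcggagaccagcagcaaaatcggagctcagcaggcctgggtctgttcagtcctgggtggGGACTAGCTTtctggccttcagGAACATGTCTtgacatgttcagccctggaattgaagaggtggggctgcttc
Mdm2: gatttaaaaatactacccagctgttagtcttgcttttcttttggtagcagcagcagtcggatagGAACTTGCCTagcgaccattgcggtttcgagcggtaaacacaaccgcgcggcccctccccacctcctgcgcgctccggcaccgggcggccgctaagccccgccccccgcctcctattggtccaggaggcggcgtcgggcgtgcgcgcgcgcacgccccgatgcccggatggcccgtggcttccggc
Bax: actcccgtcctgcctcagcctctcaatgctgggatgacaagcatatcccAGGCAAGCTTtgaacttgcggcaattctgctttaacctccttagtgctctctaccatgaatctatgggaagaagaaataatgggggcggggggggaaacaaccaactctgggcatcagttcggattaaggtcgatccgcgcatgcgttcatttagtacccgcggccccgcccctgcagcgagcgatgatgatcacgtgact
Of the 17 targets, 15 had a promoter in the RefSeq table. The motif was found in 5 of the 8 that rose (*Cdkn1a*, *Mdm2*, *Bax*, *Aen* and *Polk*) and in 1 of the other 7 (*Ei24*, which fell). Over all genes it was present in 8.20% of 27025 promoters, and in 7.58% of the 2466 tested genes that had one. Where RefSeq gives more than 1 start for a target, a match at any start was counted, as it was for all genes. A match describes the letters in this window and not binding.

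The other targets that rose were *Phlda3*, an inhibitor of the kinase Akt, from 0.701, 1.08 and 1.20 FPKM to 5.83, 4.60 and 1.59 FPKM, and *Polk*, a translesion DNA polymerase, from 1.43, 0.904 and 0.865 FPKM to 2.87, 2.54 and 1.86 FPKM. *Aen*, a nuclease of apoptosis, rose by 0.96 ± 0.19, *Plk2*, a polo-like kinase, by 0.78, and *Tigar*, a phosphatase that limits glycolysis, by 0.55. Those that fell were *Gpx1*, a glutathione peroxidase, from 1525, 1615 and 1224 FPKM to 1011, 552 and 199 FPKM, the death receptor *Fas* (-0.70) and *Ei24* (-0.71). *Btg2*, an antiproliferative gene, was at -0.89 (limma adjusted p = 0.0513), and *Gdf15*, a stress-induced cytokine, at 0.64 (limma adjusted p = 0.123). The group median was 0.56, 0.54 and 0.71 in B1, B3 and B4 relative to the Saline mean, and -0.04, -0.01 and 0.16 in the Saline libraries, without a steady change from B1 to B4. The number of targets that rose was 8 without Saline replicate 3 or without B1, and 1, 0, 0 and 1 without Saline replicate 1, Saline replicate 2, B3 and B4, while the group median stayed between 0.48 and 0.68 in these 6 fits. Other genes of DNA repair did not share a direction, with 1 of 9 higher and 3 lower, beside 10% and 21.9% of all genes. *Ercc6* rose by 0.63, and *Xrcc6*, which binds broken DNA ends as Ku70, fell by 1.18, as did *Rad51b* and *Apex1* by 1.18 and 0.94.

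**Figure D3:**
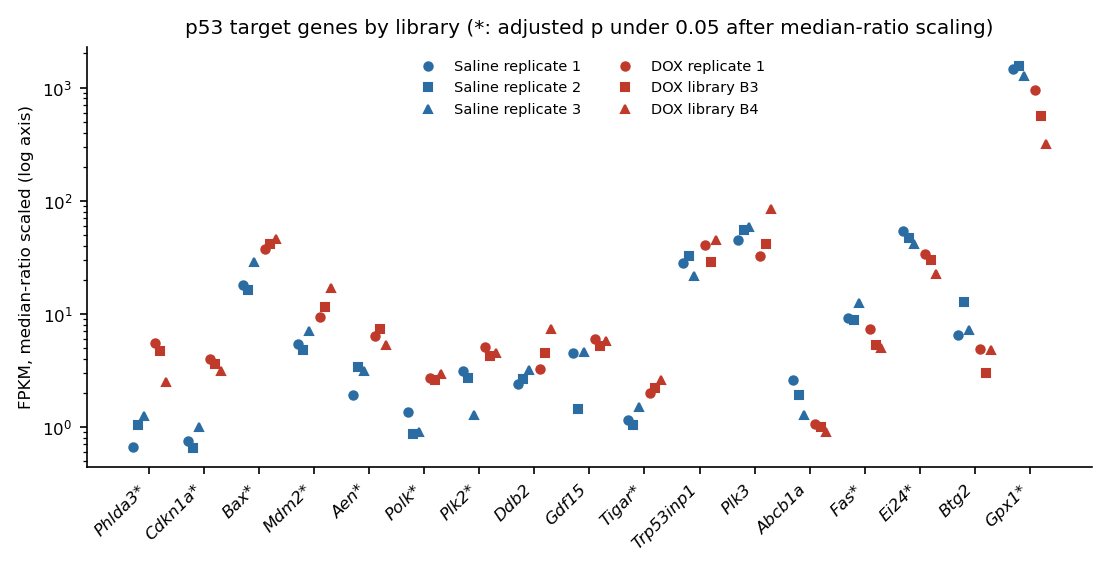
FPKM of the 17 p53 targets tested, after median-ratio scaling, on a log axis. Circles, squares and triangles are Saline replicates 1, 2 and 3 (blue) and DOX libraries B1, B3 and B4 (red); an asterisk marks a limma adjusted p under 0.05. Among genes with an asterisk, DOX points lie above all Saline points for *Cdkn1a*, *Phlda3*, *Mdm2*, *Bax*, *Aen*, *Polk*, *Plk2* and *Tigar*, and below them for *Gpx1*, *Fas* and *Ei24*. Counting genes without an asterisk too, they lie above for 10 genes and below for 5.

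Genes of fatty acid oxidation fell together. Mitochondrial beta-oxidation, which shortens fatty acids to acetyl-CoA in the fasting liver, had 16 of 25 listed genes tested, with a median of -1.39 as deposited and -1.17 after median-ratio scaling. Of these, 13 fell, beside 21.9% of all genes, and none rose. Every DOX library lay below every Saline library for 14 after median-ratio scaling, beside 30.5% of all genes. *Hadha*, the alpha subunit of the trifunctional protein, was at 66.9, 57.6 and 25.9 FPKM in Saline and 29.5, 12.2 and 5.59 FPKM in DOX, so that B1 lay above Saline replicate 3. *Acadvl*, the dehydrogenase of very long chains, was at 179, 160.0 and 125 FPKM in Saline and 101, 63.0 and 28.2 FPKM in DOX. *Eci2*, an enoyl-CoA isomerase, was at 131, 109.8 and 96.8 FPKM in Saline and 66.7, 37.2 and 31.3 FPKM in DOX. The dehydrogenases *Acads*, *Acadm* and *Acadl* fell by 1.44, 1.04 and 0.89. The entry step *Cpt1a* was at 64.6, 67.8 and 53.6 FPKM in Saline and 37.6, 26.5 and 23.0 FPKM in DOX, but its adjusted p was 0.132 in limma, and *Etfb* was at -0.15. The group median was -0.60, -1.19 and -1.63 in B1, B3 and B4. No gene of this group was called without Saline replicate 1, Saline replicate 2, B3 or B4, and 14 were called without Saline replicate 3 or without B1.

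PPAR alpha is the nuclear receptor that drives fat burning in the fasting liver. Of 36 listed targets 28 were tested, 14 fell and none rose, with a median of -1.28 as deposited and -1.07 after median-ratio scaling. *Angptl4*, a secreted inhibitor of lipoprotein lipase, was at 58.1, 48.3 and 47.4 FPKM in Saline and 15.9, 10.7 and 21.2 FPKM in DOX. *Cyp4a14*, a fatty acid omega-hydroxylase, was at 444, 179 and 56.0 FPKM in Saline and 59.5, 33.1 and 10.01 FPKM in DOX, and it is one of several close copies that may share reads. Many of these genes also belong to the oxidation list. The number that fell was 22 without Saline replicate 3, 17 without B1, 1 without B4 and 0 without Saline replicate 1, Saline replicate 2 or B3. Of 18 peroxisomal genes 5 fell, a share near the 21.9% of all genes, and none rose, with a median of -0.93. Those that fell included *Hacl1* (-1.39), *Hsd17b4* (-0.98) and *Acaa1a* (-0.77).

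Of 11 genes of fatty acid and triglyceride synthesis 2 rose, beside 10% of all genes, and none fell. Their median was 0.34 as deposited and 0.56 after median-ratio scaling. Without Saline replicate 3 the median was 0.09, with 2 called higher and 1 lower, and without B4 it was 0.34 with none called. *Mlxipl*, the sugar-sensing factor ChREBP, rose from 102, 123 and 127 FPKM to 194, 269.8 and 215 FPKM (1.16), and *Pnpla3* rose as described above. *Srebf1*, the insulin-responsive factor SREBP-1, was at 65.3, 72.2 and 49.2 FPKM in Saline and 176, 129.9 and 48.6 FPKM in DOX (0.97, limma adjusted p = 0.0511). *Fasn*, fatty acid synthase, was at 111, 116 and 34.8 FPKM in Saline and 227, 175 and 36.6 FPKM in DOX, and its groups overlapped. In the bile acid list of 11 genes, *Cyp7a1* was the only one to rise and *Slc27a5*, which activates bile acids for conjugation, was the only one to fall, from 320.4, 334 and 217 FPKM to 194, 124 and 75.6 FPKM. Of 8 apolipoproteins *Apoa5* fell by 0.83. *Apoa1*, the main protein of high-density lipoprotein, was at 5037, 5151 and 5617 FPKM in Saline and 9371, 7435 and 5465 FPKM in DOX. The apolipoprotein median was 0.04 as deposited and 0.27 after median-ratio scaling, and below 0 without the 20 most abundant genes.

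Groups of carbohydrate and amino acid metabolism had medians below that of all genes. In glycolysis 12 of 22 listed genes were tested, 6 fell and none rose, with a median of -0.92, which was -0.595 without B4. *Pgk1*, phosphoglycerate kinase, fell from 124, 119 and 71.9 FPKM to 73.5, 41.7 and 10.8 FPKM, and triose phosphate isomerase, *Tpi1*, from 183, 185 and 123 FPKM to 131, 69.7 and 19.5 FPKM. *Pfkl*, the liver phosphofructokinase, fell by 0.69. Among 10 genes of gluconeogenesis and glycogen 5 fell and none rose (median -0.82), namely *Fbp1*, the pyruvate carboxylase *Pcx* (-0.95), the phosphoglucomutase *Pgm1* (-1.46), the coactivator *Ppargc1a* and *Ppp1r3g*, a glycogen-targeting subunit of protein phosphatase 1. The last was at 37.4, 49.0 and 7.004 FPKM in Saline and 1.61, 1.26 and 7.77 FPKM in DOX, so B4 lay above Saline replicate 3. *Ppargc1a* kept its call in 0 of 6 fits that left out a library.

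Of 22 tested genes of amino acid catabolism, out of 62 listed, 11 fell and none rose (median -0.78). *Gnmt*, glycine N-methyltransferase, fell from 928, 1177 and 563 FPKM to 476, 286 and 125 FPKM. *Hpd*, the dioxygenase of tyrosine breakdown, fell from 1337, 1451 and 1112 FPKM to 991, 726 and 383 FPKM. Both subunits of propionyl-CoA carboxylase fell, *Pccb* by 1.29 and *Pcca* by 1.16. In the urea cycle and ammonia group of 4, the aspartate/glutamate carrier *Slc25a13* (-1.07) and glutamine synthetase, *Glul* (-0.97), fell. *Cps1*, the first enzyme of the cycle, was at 447, 427 and 224 FPKM in Saline and 264, 190.3 and 132 FPKM in DOX, with B1 above Saline replicate 3. Of 13 one-carbon and nucleotide genes 6 fell, and *Pfas*, a purine synthesis enzyme, rose by 0.56.

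Mitochondrial genes differed by genome and by transcript. All 13 mitochondrially encoded messages lay above 0, with a median of 1.10 as deposited and 1.32 after median-ratio scaling, and 3 rose. Without B4 the latter median was 0.75 and none was called. The cytochrome oxidase message *mt-Co1* was at 29411, 33606 and 52992 FPKM in Saline and 50050.0, 77628 and 129662 FPKM in DOX, and B1 lay below Saline replicate 3. *mt-Nd1*, a complex I subunit, rose from 9083, 10254 and 14342 FPKM to 14616, 25586 and 37986 FPKM. After median-ratio scaling, every DOX library lay above every Saline library for 0 of the 13 messages. With quantile normalization their median was 0.004, beside -0.13 for all genes. In the tricarboxylic acid cycle 7 of 10 genes fell, beside 21.9% of all genes, and none rose. The median of the cycle was -0.97, with a range of -1.52 to -0.57. Fumarase, *Fh1*, fell from 78.3, 80.1 and 106 FPKM to 57.2, 43.1 and 22.3 FPKM, and *Idh2*, isocitrate dehydrogenase, from 84.2, 85.9 and 52.5 FPKM to 49.2, 37.3 and 9.26 FPKM.

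Nuclear subunits of the respiratory chain and ATP synthase split by transcript length. Of 37 tested, the 19 with transcripts under 1000 bp had log2 fold changes of 0.04 to 0.55 with a median of 0.21, and none was called. The 18 longer ones had a median of -0.40, 11 lay below 0 and 7 fell. These included *Sdha* and *Sdhd* of complex II, *Ndufv1* of complex I, *Atp5a1* and *Atp5b* of ATP synthase, and *Cox7a2l*, a factor that joins complexes into supercomplexes. *Atp5b* fell from 449, 424 and 199 FPKM to 229, 126 and 40.6 FPKM, and *Ndufv1* from 82.2, 79.9 and 52.4 FPKM to 57.7, 32.1 and 15.1 FPKM. *Cox6c*, a short subunit of complex IV, was at 213, 213 and 266 FPKM in Saline and 237, 258 and 163 FPKM in DOX. Mitochondrial ribosomal proteins showed a median of 0.09 for 6 short and -0.58 for 11 long transcripts, with 5 of the latter lower, and cytosolic ribosomal proteins 0.43 for 4 short and -0.87 for 8 long ones. The split was also present over all genes with a known length, at a median of 0.29 for 176 transcripts under 1000 bp and -0.31 for the other 2953. It was not a steady fall with length. In 5 equal bins from short to long the median was -0.04, -0.56, -0.41, -0.26 and 0.18. When the trend on transcript length was removed within each library, a setting chosen after seeing the data, 8 p53 targets were called higher and 0 lower, and 9 fatty acid oxidation, 3 cytochrome P450 and 3 coagulation genes were called lower. The medians of the nuclear complex I, complex II to IV, ATP synthase and mitochondrial ribosomal groups change sign between scalings.

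**Figure D4:**
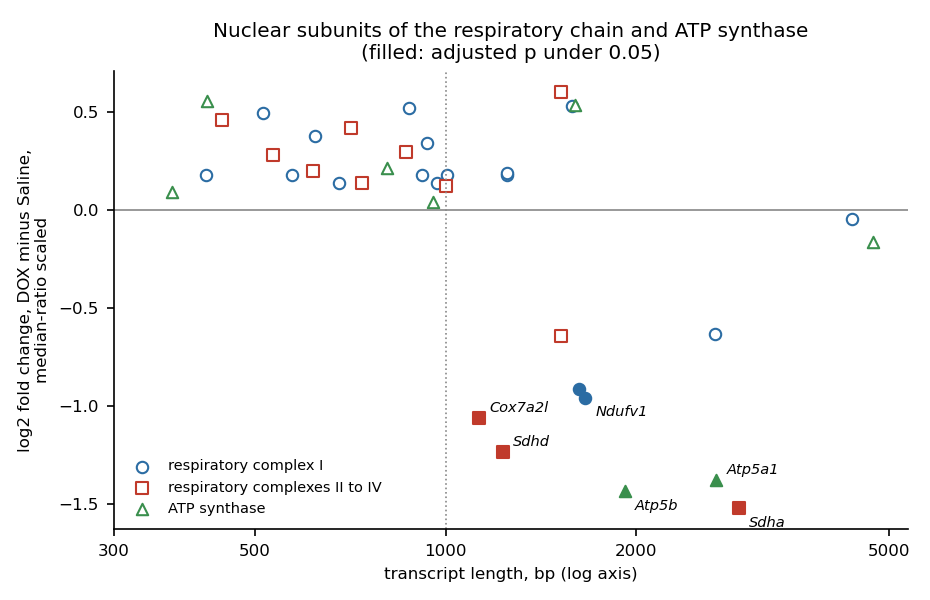
Log2 fold change after median-ratio scaling (y axis) against transcript length in bp (log x axis) for 37 nuclear subunits of the respiratory chain and ATP synthase; circles are complex I, squares complexes II to IV and triangles ATP synthase, and filled points have a limma adjusted p under 0.05. All 19 points left of the dotted line at 1000 bp lie above 0 and the 7 filled points lie right of it, below 0.

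Detoxification genes differed by family. Cytochrome P450 genes had a median of -1.14 as deposited and -0.96 after median-ratio scaling. Of 27 such genes 9 fell and 1, *Cyp7a1*, rose, beside 21.9% and 10% of all genes. *Cyp2e1*, which oxidises ethanol and small solvents, was at 3139, 3678 and 2855 FPKM in Saline and 2353, 1227 and 381 FPKM in DOX (-1.40 ± 0.42). *Cyp3a13*, a steroid and drug hydroxylase, was at 51.3, 47.2 and 79.3 FPKM in Saline and 30.02, 21.1 and 12.7 FPKM in DOX. The DOX libraries of both genes lay below all Saline libraries. *Por*, the reductase that supplies these enzymes with electrons, fell from 191, 183 and 185 FPKM to 115, 86.6 and 63.3 FPKM. *Cyp2c29*, *Cyp2c38* and *Cyp2c39* fell by 1.74, 0.79 and 0.79, but Cyp2c genes are close copies. Of the conjugating enzymes, 2 of 9 UDP-glucuronosyltransferases fell, *Ugt3a2* by 1.44 and the bilirubin enzyme *Ugt1a1* by 1.16, a share like the 21.9% of all genes. All 4 sulfotransferases that fell, of 8 tested, were of the Sult2a family, whose copies are near-identical. None of 6 glutathione S-transferases or 5 carboxylesterases was called. Of 7 targets of NRF2, the sensor of oxidative stress, 3 fell and none rose, beside 21.9% and 10% of all genes. Those that fell were *Hmox1* (-1.30), *Gsr* (-0.78) and *Txnrd1* (-0.70). *Hmox1* is also counted among the macrophage markers below.

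Coagulation, complement, serpin and carrier genes, whose products hepatocytes secrete into plasma, had medians below that of all genes, unlike the apolipoproteins above and the major urinary proteins below. Among coagulation genes 10 of 27 listed were tested and 8 fell, with a median of -1.23 as deposited and -1.01 after median-ratio scaling. *Fga*, the fibrinogen alpha chain, fell from 1265, 1201 and 1639 FPKM to 895, 376 and 155 FPKM, *Plg*, plasminogen, from 738, 714 and 696 FPKM to 534, 303 and 142 FPKM, and prothrombin, *F2*, from 796, 799.9 and 617 FPKM to 560.4, 333 and 158 FPKM. The 3 Saline values of *Plg* lay close together, and each DOX library was below them. Of 9 complement genes 4 fell, beside 21.9% of all genes (median -0.94). Among them, *C3*, the central component, fell from 1195, 1141 and 1173 FPKM to 739.8, 440.1 and 169.7 FPKM. Of 13 serpins 4 fell (median -0.76, beside 21.9% of all genes), with *Serping1*, the C1 inhibitor, at -1.27. The carriers *Trf*, transferrin, and *Selenop*, selenoprotein P, fell by 1.41 and 1.38. None of the genes in these 4 groups rose.

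Acute phase genes, which the liver induces in inflammation, had 15 of 27 listed genes tested, of which 8 fell and none rose (median -1.22). Saline replicate 3 set much of the Saline level for some of them. *Saa1*, serum amyloid A, was at 7.88, 12.5 and 1117 FPKM in Saline and 13.7, 10.9 and 6.21 FPKM in DOX, and *Saa2* at 4.10, 7.92 and 701 FPKM and 10.4, 8.03 and 3.83 FPKM. Neither was called, and apart from that library the *Saa1* groups overlapped. *Crp*, C-reactive protein, fell from 178, 183 and 218 FPKM to 132, 76.6 and 40.2 FPKM, and *Itih4* from 392, 319.9 and 431 FPKM to 212, 136 and 50.9 FPKM. The group median relative to the Saline mean was -0.22, -0.44 and 0.77 in the Saline libraries and -0.64, -1.37 and -1.63 in DOX. Interferon-stimulated genes had no common direction. Of 32 tested 2 rose, *Mx1* by 0.77 and *Oas2* by 0.83, and none fell, beside 10% and 21.9% of all genes. *Igtp*, an interferon-gamma GTPase, was at 24.6, 33.6 and 150.4 FPKM in Saline and 22.5, 21.5 and 9.97 FPKM in DOX, again with a high Saline replicate 3.

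**Figure D5:**
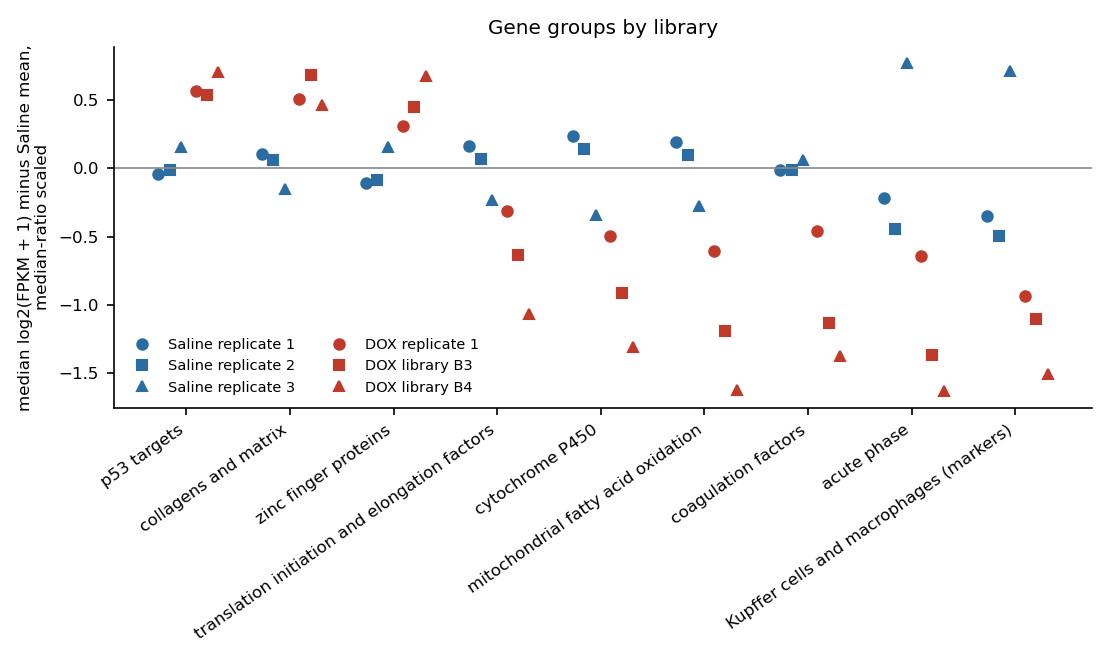
Median over the genes of a group of log2(FPKM + 1) minus the Saline mean, after median-ratio scaling, for each library; circles, squares and triangles are Saline replicates 1, 2 and 3 (blue) and DOX libraries B1, B3 and B4 (red). In the lower groups the DOX points descend from B1 to B4, for fatty acid oxidation from -0.60 to -1.63, whereas p53 targets lie between 0.54 and 0.71 in DOX. Saline replicate 3 stands above the other Saline points for acute phase genes (0.77) and macrophage markers (0.71).

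Several groups of protein synthesis and protein breakdown had medians below that of all genes, and ribosome biogenesis did not. Translation initiation and elongation factors had 9 of 21 genes lower and none higher, with a median of -0.83 as deposited and -0.64 after median-ratio scaling. *Eef2*, the elongation factor that moves the ribosome along the message, fell from 406, 384 and 285 FPKM to 285, 176 and 56.6 FPKM, and *Eif6*, a ribosome assembly and initiation factor, from 21.4, 23.2 and 18.9 FPKM to 15.5, 7.91 and 3.64 FPKM. *Eif5b*, which joins the ribosomal subunits, was at 5.29, 5.05 and 4.20 FPKM in Saline and 6.10, 6.10 and 9.60 FPKM in DOX. Every DOX library was higher, without passing the test. Aminoacyl-tRNA synthetases had 7 of 13 lower and none higher (median -0.64), led by *Fars2* (-1.11) and *Farsb* (-0.96), and 1 of 12 cytosolic ribosomal proteins, *Rpl3*, fell by 1.13. Ribosome biogenesis genes had a median of 0.09, and 1 of 14 rose and 2 fell, beside 10% and 21.9% of all genes.

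Proteasome subunits had 8 of 17 lower and none higher (median -0.70), for example *Psmd13* from 24.7, 23.9 and 16.9 FPKM to 16.5, 8.99 and 3.81 FPKM. In lysosome and autophagy 17 of 36 listed genes were tested, 13 fell and none rose, with a median of -1.19 as deposited and -0.98 after median-ratio scaling. *Lamp2*, a lysosomal membrane protein, fell from 208, 196 and 144 FPKM to 138, 83.4 and 42.5 FPKM, *Ctsd*, cathepsin D, from 118, 119 and 92.1 FPKM to 90.7, 53.6 and 21.2 FPKM, and *Npc2*, a cholesterol carrier of the lysosome, from 18.5, 17.6 and 15.4 FPKM to 11.6, 5.87 and 2.17 FPKM. The cathepsins *Ctsh* and *Ctsb*, the membrane protein *Lamp1*, the acid lipase *Lipa* and the autophagy receptor *Sqstm1* fell by 1.38, 1.11, 1.37, 1.31 and 1.01. *Ulk1*, which starts autophagy, was at 17.5, 15.1 and 14.3 FPKM in Saline and 23.0, 16.8 and 15.9 FPKM in DOX, and was not called.

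Transcription and splicing regulators were large groups on the higher side. Zinc finger genes, mostly low-abundance transcription factors, had 24 of 64 tested genes higher and 1, *Zfp36l1*, lower, beside 10% and 21.9% of all genes. Their median was 0.31 as deposited and 0.49 after median-ratio scaling. *Zkscan3*, a repressor of autophagy genes, rose from 14.6, 15.4 and 17.5 FPKM to 26.2, 31.8 and 25.7 FPKM, *Zfp692* from 4.14, 3.66 and 4.28 FPKM to 7.04, 10.4 and 9.46 FPKM, and *Zfp950* from 6.69, 8.27 and 10.02 FPKM to 18.5, 23.5 and 10.8 FPKM. In each, the lowest DOX library was above the highest Saline library. *Zfp36l1*, which binds AU-rich messages and speeds their decay, fell from 44.8, 33.1 and 31.8 FPKM to 24.3, 24.7 and 14.4 FPKM. Of 34 splicing and RNA-binding genes 5 rose, beside 10% of all genes, and 2 fell, with a median of 0.27 as deposited and 0.48 after median-ratio scaling. *Luc7l2*, a component linked to the U1 particle, rose from 37.1, 45.9 and 60.3 FPKM to 75.8, 97.0 and 81.5 FPKM, and *Snrpb*, a core protein of the spliceosomal particles, fell from 33.0, 28.5 and 23.4 FPKM to 18.1, 11.999 and 5.35 FPKM.

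The change also followed how strongly a gene is expressed. In 5 equal bins of genes, from the lowest to the highest mean FPKM, the median log2 fold change was 0.28, 0.16, -0.33, -0.56 and -0.70, with a Spearman correlation of -0.354 across the 3317 genes, which are not independent and share their libraries. The same correlation was 0.141 with transcript length and 0.185 with GC content across the 3129 genes with an annotation. The 188 newly assembled loci had a median of 0.46, with 28 higher and 7 lower. The zinc finger genes lie in the low range and the metabolic, plasma protein and lysosomal genes in the high range, and the part of expression level in the changes of these groups was not tested.

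Markers of the cell types in the tissue moved in different directions. Of 14 hepatocyte markers 5 were tested, all strongly expressed, and their summed FPKM was 14370 to 15878 in Saline and 8296 to 17423 in DOX, with *Trf* and *Cyp2e1* lower. The Kupffer cell and macrophage markers, 11 of 20, had a median of -1.43 as deposited and -1.24 after median-ratio scaling. Of the 11, 7 fell, beside 21.9% of all genes. After median-ratio scaling every DOX library lay below every Saline library for all 11, beside 30.5% of all genes. *Vsig4*, a complement receptor of Kupffer cells, was at 10.4, 8.09 and 18.4 FPKM in Saline and 6.99, 2.90 and 1.48 FPKM in DOX, and *Cd5l*, a secreted macrophage protein, at 20.8, 20.3 and 40.6 FPKM in Saline and 10.3, 8.29 and 4.23 FPKM in DOX. *C1qc* and *Folr2* fell by 1.24 and 1.31. The summed markers were at 125 to 328 FPKM in Saline, highest in replicate 3, and at 37.2 to 92.0 FPKM in DOX. Without Saline replicate 3 the median was -0.77 with 6 genes called, and without Saline replicate 1, Saline replicate 2, B3 or B4 none was called.

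Genes of stellate cells and fibroblasts lay on the higher side. Of 19 markers 5 were tested and 4 rose, beside 10% of all genes (median 0.60 as deposited and 0.79 after median-ratio scaling). After median-ratio scaling the DOX libraries lay above all Saline libraries for all 5, beside 21.2% of all genes. *Tagln*, an actin-binding protein of contractile cells, rose from 3.38, 4.81 and 3.68 FPKM to 6.93, 6.67 and 5.98 FPKM, *Acta2*, smooth muscle actin, from 2.13, 3.63 and 3.11 FPKM to 4.70, 6.17 and 4.91 FPKM, and *Col1a1*, a fibrillar collagen chain, from 0.793, 0.686 and 0.443 FPKM to 1.67, 2.13 and 0.751 FPKM. As deposited, B4 overlapped the Saline range for *Col1a1* but not for *Tagln* or *Acta2*. After median-ratio scaling, *Col1a1* kept its call in 0 of 6 fits that left out a library, and *Tagln* and *Acta2* in 2 of 6. None of the 5 markers was called without Saline replicate 1 or Saline replicate 2, where the group median was 0.71 and 0.84. In the wider list of 14 collagen and matrix genes 6 rose, beside 10% of all genes, and none fell. None of the 14 was called without Saline replicate 1 or Saline replicate 2. *Fn1*, plasma fibronectin from hepatocytes, was at -0.73 (limma adjusted p = 0.0502). The group median in B1, B3 and B4 was 0.51, 0.68 and 0.46.

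The 4 globin genes were higher in every DOX library after median-ratio scaling, as were 21.2% of all genes. *Hba-a1* was at 135, 107 and 133 FPKM in Saline and 215, 266 and 319 FPKM in DOX. None of the 4 was called (*Hba-a1* limma adjusted p = 0.0978). Of 20 erythroid markers 5 were tested, and the 1 that is not a globin gene went the other way, at -0.63, and was not called. Globin copies are near-identical, and the erythroid sum was 372 to 552 FPKM in Saline and 849 to 1150 FPKM in DOX. Of 5 endothelial markers, summed at 18.4 to 24.4 FPKM in Saline and 18.2 to 32.0 FPKM in DOX, *Egfl7* rose by 0.54. The 3 lymphocyte, 2 neutrophil and 1 cholangiocyte markers tested were not called, and the low number of markers limits what can be said of these cells. The part of cell composition in the other results was not tested.

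Genes that depend on sex and time of day changed in part. Of 25 genes known to be higher in female liver 11 fell and none rose (median -1.01 as deposited and -0.81 after median-ratio scaling), including the Sult2a and Cyp4a genes above. Of 7 male-biased genes *Cib3* rose, from 1.18, 3.33 and 0.272 FPKM to 9.43, 5.28 and 3.13 FPKM. The major urinary proteins, products of growth hormone in male liver, had a median of 1.14 over 5 near-identical genes, and *Mup8* alone was called. Without B4 this median was 0.67 and none was called. *Mup2* was at 107, 184 and 136 FPKM in Saline and 212, 175 and 289.7 FPKM in DOX. In the circadian group of 11, 2 rose and 3 fell, not far from the 10% and 21.9% of all genes. The circadian median was -0.25, beside -0.19 for all genes. The clock repressor *Per2* rose from 6.73, 9.09 and 14.5 FPKM to 18.1, 28.3 and 15.4 FPKM and *Per3* by 0.75, whereas *Nfil3*, a repressor of clock output, fell from 6.96, 7.17 and 7.63 FPKM to 1.55, 2.67 and 2.94 FPKM. *Klf9*, which glucocorticoids induce, fell by 1.40, and *Por* fell as above. The Saline values of *Nfil3* differed little from each other, and its highest DOX library was well below them.

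Transport and iron handling were mixed. Of 74 solute carriers 6 rose and 20 fell, beside 10% and 21.9% of all genes, with a median of -0.46. *Slc26a10* rose from 3.15, 2.59 and 2.46 FPKM to 5.45, 5.48 and 3.76 FPKM, and *Slc25a33*, a mitochondrial pyrimidine nucleotide carrier, fell from 10.9, 6.23 and 6.10 FPKM to 4.79, 1.73 and 1.53 FPKM. Among 11 iron and heme genes 5 fell and none rose (median -0.71), with the heme synthesis enzyme *Cpox* at 25.02, 23.0 and 14.4 FPKM in Saline and 12.6, 7.61 and 5.26 FPKM in DOX. Only 2 of 34 proliferation genes were tested, *Ccnd1* and *Rrm2*, and neither was called.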

How the data were processed

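Livers of DOX and Saline mice were extracted with TRIzol, poly-T selected, prepared with a NEBNext Ultra kit and sequenced on an Illumina NovaSeq. The submitters' processing notes name HISAT2, DESeq2, edgeR and GRCm38 without roles or versions, and whether counting used strand is not given in the sources used here. The deposited table holds per-gene values for genes the authors had selected, read here as FPKM; the header names no unit, and the values are not whole and do not sum to a common total over the listed genes. No counts are used, so the depth is unknown and the number of libraries limits the precision. The genes described and the gene groups were chosen with earlier results of these data known.

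Genes whose mean over 12 libraries was 1 or more (n = 3317) were fitted with limma 3.58.1 (R 4.3.3, eBayes with trend) on log2(FPKM + 1), in a one-way layout of 4 groups with 8 residual degrees of freedom, as deposited and after median-ratio scaling. P-values were two-sided and adjusted by Benjamini-Hochberg over all genes, with a threshold of 0.05. The fit was tested on simulated data with noise drawn separately for each gene and library. Such data lack the graded differences between the DOX libraries, so that test does not cover them. Other libraries of the layout enter the spread, the filter on the mean and the geometric mean behind the size factors. Named genes were those called as deposited, the 10 largest rises and 10 largest falls at a mean of 5 FPKM or more with groups that did not overlap in either scaling, and from each group up to 4 genes of the smallest p and the gene highest in Saline. Other named genes were chosen after their values were seen. Gene models, lengths and overlaps came from GENCODE M21 and promoters from RefSeq. Alternatives were another pseudocount, no filter, other scalings, the 6 libraries alone, leaving out each library, and removal of trends on length or GC content (lowess span 0.3). Some results are not reported here.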

Additional observations from a re-analysis of the deposited data

How the results depend on the processing

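As deposited, 6 genes were called. The count was 2 with a pseudocount of 0.1, 11 with no filter, 1059 after median-ratio scaling, 765 after quantile normalization (407 higher, 358 lower), 1069 without the 20 most abundant genes (949 higher, 120 lower), 605 with the trend on transcript length removed, 764 with the trend on GC content removed and 2 at an adjusted p under 0.01. It was 5 without the mitochondrially encoded genes and 5 with the 6 libraries alone. Leaving out 1 library gave 2 to 1474. After median-ratio scaling, the 1059 calls became 16 with the 6 libraries alone, 2 at an adjusted p under 0.01 and 292 with a log2 fold change of at least 1, and leaving out 1 library gave 1 to 1901. The lowest counts came without Saline replicate 1 or 2, B3 or B4, and the highest without Saline replicate 3 or B1. Both trend settings were chosen after seeing the data, and the cause of these shifts was not tested. No named gene called in a given scaling changed direction under that scaling's alternatives; genes that were not called were not followed. Of the group medians relative to all genes as deposited, those that changed sign from a value beyond the spread of the DOX libraries were complexes II to IV (-0.043 with the length trend removed), glutathione S-transferases (0.126, quantile normalization), apolipoproteins (-0.484, without the 20 most abundant genes), DNA repair (-0.0067 with quantile normalization, -0.237 to 0.391 when 1 library was left out, the former without Saline replicate 2, -0.041 with the GC trend removed) and hepatocyte markers (0.130, without the 20 most abundant genes). Medians closer to that of all genes, or moved within that spread, also changed sign for ATP synthase, mitochondrial ribosomal proteins, interferon-stimulated genes, MHC, circadian genes and histones. The difference in the share of mitochondrial messages, 20.7 percentage points, ranged from 15.8 to 26.4 when 1 library was left out. No paired analysis was possible because the DOX and Saline columns share 1 replicate number. Depth is unknown, and 3 libraries per group limit every comparison.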
